A study of Mus musculus with 4 samples.

Results

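Rnf17, also known as Tdrd4, and 9 relatives (Tdrd1, Tdrd3, Tdrd5, Tdrd6, Tdrd7, Tdrd9, Tdrd12, Tdrkh and Stk31) were followed by RNA sequencing in mouse embryonic fibroblasts (MEFs), a mixed culture of connective-tissue cells taken from whole embryos. The 10 genes were matched by symbol among the 54532 gene IDs of the deposited count table. Rnf17 had been picked because its counts differed with Zfp871 genotype in these same libraries, and the relatives because their proteins carry the same kind of domain. Differences with Zfp871 are therefore given as a description, with no test. There were 4 genotypes with 1 library each: wild type (WT), Zfp871-/- with Trp53 intact, Trp53-/- with Zfp871 intact, and Trp53-/-; Zfp871-/- (double null). Cells of all 4 were primary C57BL/6 MEFs from embryos of 12.5 to 13.5 days post-coitum, dividing at passage 4. Double-heterozygous parents gave WT, Trp53-/- and double-null cells, whereas heterozygotes for Zfp871 alone gave WT and Zfp871-/- cells, and the cross behind the sequenced WT cells is not stated. Zfp871-/- and double-null cells thus came from different crosses. In that pair Trp53 genotype and cross cannot be told apart, and the test of Trp53 loss used below draws on this pair. Because the cross of the WT cells is not stated, a further pair differs in cross as well. It is either Zfp871-/- against WT or Trp53-/- against WT, and genotype and cross cannot be told apart there either. How the alleles were made, and whether embryos were pooled, is not given in the sources used here.

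Tudor domains are small folds that bind methylated arginine or lysine. In male germ cells, several Tudor proteins gather in perinuclear granules, the nuage and the chromatoid body, where they hold PIWI proteins and help to make piRNAs, the small RNAs that silence transposons. Most of these genes are kept silent in body cells, while a few, such as Tdrd3, act in many tissues.

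The libraries held 19303167 to 22324599 counts. Zfp871 had 660 counts in WT and 327 in Zfp871-/-, then 784 in Trp53-/- and 307 in the double null. Trp53 had 2383, 2413, 1233 and 1382 counts in that order, so each targeted gene was lower in the libraries labelled null for it. The 10 fibroblast markers looked at, among them Col1a1 and Vim, were counted in every library but were not level. Their log2 ratios of Zfp871 loss ran from -0.34 to 1.32 (Thy1) with Trp53, where Dcn stood at 1.27, and from -0.97 (Dcn) to 0.15 without it. For Trp53 loss they ran from -0.82 to 1.71 and from -1.86 to 0.57. Their part in the differences described below was not tested. The 15 macrophage markers stood apart, with a summed level of 82.7 counts scaled to library size (CPM) in WT and 94.6 in Zfp871-/-, then 1162 in Trp53-/- and 1049 in the double null. In bulk RNA, a change in the number of cells of a type and a change in RNA per cell cannot be told apart. With 1 library per genotype, a difference between a pair of libraries compares those libraries, and its 95% exact binomial interval covers counting error only.

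Rnf17 encodes a protein with a RING finger and several Tudor domains that sits in germ cell granules and is needed for sperm formation. Its RNA was near the detection limit wherever Zfp871 was intact and clearly counted wherever Zfp871 was lost. Rnf17 (ENSMUSG00000000365, chromosome 14, 56402581 to 56525032, plus strand, GRCm38/mm10) has 6241 bases of annotated exon sequence. It had 10 counts in WT and 301 in Zfp871-/-, then 14 in Trp53-/- and 311 in double-null cells. The libraries with and without Zfp871 did not overlap, which is a description only, since Rnf17 was picked for this contrast. The share of all genes that separate in this way is not given here. Zfp871-/- was 30.1-fold above WT, a log2 ratio of 4.91 (95% interval 4.01 to 5.99). The double null was 20.9-fold above Trp53-/-, a log2 ratio of 4.38 (3.62 to 5.27). These intervals overlap widely, and the difference between backgrounds was not tested.

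Levels per length place Rnf17 among other genes. Its deposited level, in fragments per kilobase of exon and scaled to library depth (FPKM), was 0.0844 in WT and 2.56 in Zfp871-/-, then 0.102 in Trp53-/- and 2.14 in the double null. Of 21995 protein-coding genes, 38.4% had a lower FPKM level than Rnf17 in WT and 39.5% in Trp53-/-. In Zfp871-/- this share was 59.9%, and in the double null 57.9%. Rnf17 made up 0.57% of the summed FPKM of the 10 genes in WT and 0.568% in Trp53-/-. Its share was 15.8% in Zfp871-/- and 11.6% in the double null. No annotated exon of another gene overlaps the exons of Rnf17.

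**Figure D1:**
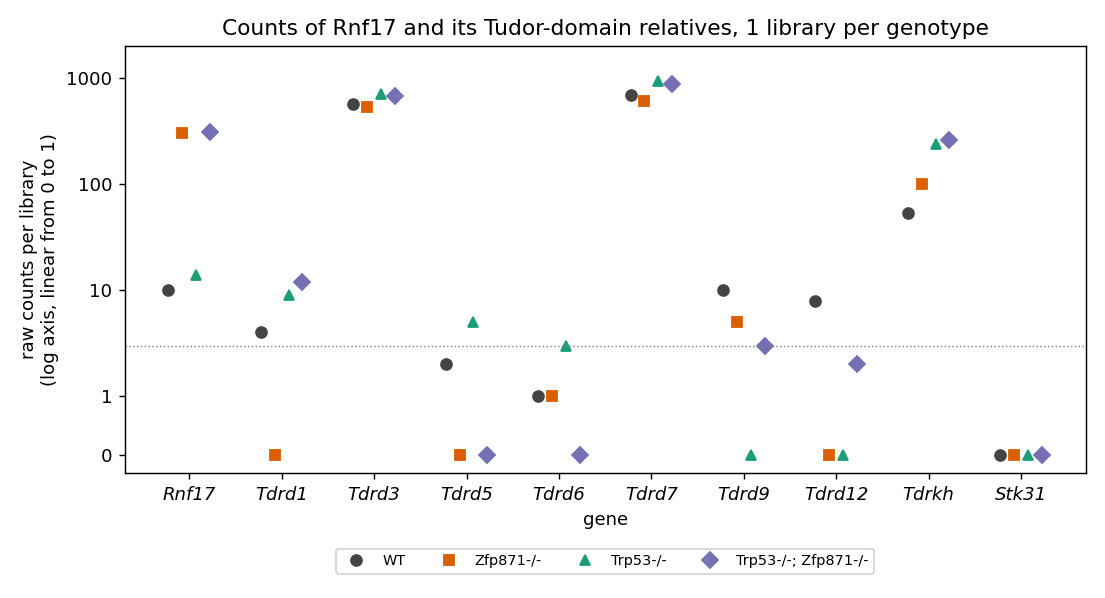
Raw counts of the 10 genes (x axis) in each of the 4 libraries (y axis, log scale, linear from 0 to 1); each point is 1 library, and the dotted line marks 3 counts, the limit that a count of 0 allows. Rnf17 sits at 10 and 14 counts with Zfp871 and at 301 and 311 without it, Tdrd3, Tdrd7 and Tdrkh are counted in every library, and the other 6 genes stay at or below 12 counts.

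The Rnf17 differences with Trp53 genotype were small beside those with Zfp871. Trp53-/- stood at a log2 ratio of 0.27 (-1.001 to 1.61) to WT, on 14 and 10 counts. The double null stood at -0.25 (-0.49 to -0.02) to Zfp871-/-. Over all 4 libraries, edgeR's quasi-likelihood test of Trp53 loss, adjusted by Benjamini-Hochberg, gave Rnf17 a log2 change of -0.10 (SE 0.28, adjusted p = 0.841), and 0.03 when counts were scaled by library totals. With 2 libraries for each state of each gene, this test has 1 residual degree of freedom, and its p-values describe these 4 cultures.

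Among the relatives, 3 were expressed in every library, and none of them followed Rnf17. Tdrd3 was level over the genotypes, and Tdrd7 differed by at most 1.18-fold within a pair of libraries. Tdrkh was highest in both Trp53-null libraries. Only Rnf17, Tdrd3, Tdrd7 and Tdrkh passed the filter of at least 1 CPM in at least 2 libraries, and Rnf17 passed it only through its Zfp871-null libraries.

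Tdrd3 (ENSMUSG00000022019, chromosome 14, 87416639 to 87545504) encodes a reader of methylated arginine on histones and a partner of the topoisomerase Top3b. It lies on the same chromosome as Rnf17. It had 565 counts in WT and 527 in Zfp871-/-, then 700 in Trp53-/- and 671 in double-null cells. The counts were higher in the Trp53-null libraries, which were also the larger ones, and the scaled levels of 29.9, 28, 32 and 28.9 CPM lie close together. The log2 ratio of Zfp871 loss was -0.10 (-0.27 to 0.08) with Trp53 and -0.15 (-0.30 to 0.01) without it. Tested with edgeR and adjusted by Benjamini-Hochberg, Trp53 loss gave a log2 change of 0.07 (SE 0.128, adjusted p = 0.743).

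Tdrd7 (ENSMUSG00000035517, chromosome 4, 45965334 to 46034761) encodes a granule protein that is needed for the chromatoid body and for the lens of the eye. It had 685 counts in WT and 607 in Zfp871-/-, then 935 in Trp53-/- and 879 in the double null. Both Zfp871-null libraries were slightly below their partners, opposite to Rnf17. The log2 ratio of Zfp871 loss was -0.17 (-0.33 to -0.01) with Trp53 and -0.18 (-0.31 to -0.04) without it. These intervals exclude an equal level, but differences of this size have no replicate check. For Trp53 loss the same edgeR test gave 0.23 (SE 0.12, Benjamini-Hochberg adjusted p = 0.267). Tdrd7 was the member with the highest level per length in each library, between 8.14 and 10.8 FPKM, ahead of Tdrd3 at 4.61 to 5.25 FPKM.

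Tdrkh (ENSMUSG00000041912, chromosome 3, 94413273 to 94434668) encodes a protein of the mitochondrial surface on which piRNA precursors are trimmed. It had 53 counts in WT and 101 in Zfp871-/-, then 236 in Trp53-/- and 261 in the double null. WT was the lowest, Zfp871-/- lay between, and the Trp53-null libraries were highest and close together. Trp53-/- was 3.85-fold above WT, a log2 ratio of 1.94 (1.51 to 2.40), and the double null 2.1-fold above Zfp871-/-, a log2 ratio of 1.07 (0.73 to 1.41). For Zfp871 loss the log2 ratio was 0.93 (0.44 to 1.44) with Trp53 and 0.06 (-0.20 to 0.32) without it, and this difference between backgrounds was not tested.

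In the edgeR quasi-likelihood test, Trp53 loss gave Tdrkh a log2 change of 1.49 (SE 0.313), which missed the threshold with a Benjamini-Hochberg adjusted p of 0.062. The edgeR test without a filter on low counts gave it an adjusted p of 0.0135, and DESeq2 one of 0.0215. All 15 macrophage markers rose with Trp53 loss in the edgeR test, and their part in the Tdrkh difference was not tested. Between WT and Zfp871-/-, where Tdrkh differed 1.91-fold, their summed CPM level differed 1.14-fold. Tdrkh shares 2255 bases (36.7%) of its exon sequence with Oaz3 on the opposite strand. Oaz3, an antizyme gene of sperm, had between 1 and 4 counts per library, and reads in the shared stretch cannot be assigned, since the strand setting is not given.

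**Figure D2:**
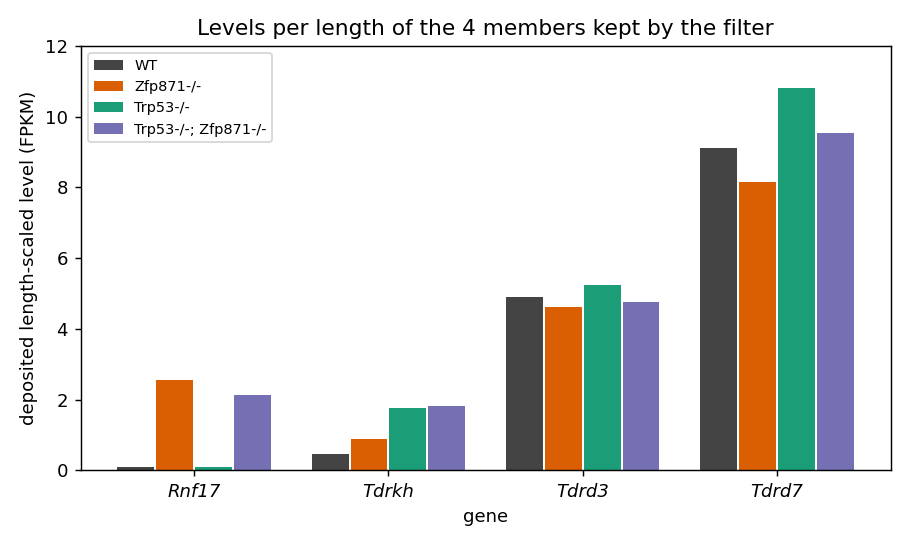
Deposited FPKM level (y axis, from 0) of Rnf17, Tdrkh, Tdrd3 and Tdrd7 (x axis), with 1 bar per library and no error bars because each genotype has 1 library. Tdrd7 and Tdrd3 are near level, Tdrkh climbs from 0.455 in WT to 1.83 in the double null, and Rnf17 is visible in the Zfp871-null libraries only.

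By FPKM, the order of these 4 genes changed only between Rnf17 and Tdrkh. Rnf17 lay below Tdrkh in WT and Trp53-/- and above it in both Zfp871-null libraries. In WT the FPKM level of Rnf17 was 0.186 times that of Tdrkh and 0.0172 times that of Tdrd3. In Zfp871-/- it was 2.93 times that of Tdrkh and 0.556 times that of Tdrd3. In the double null, where Tdrkh was also high, the ratio of the FPKM levels of Rnf17 and Tdrkh was 1.17.

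**Figure D3:**
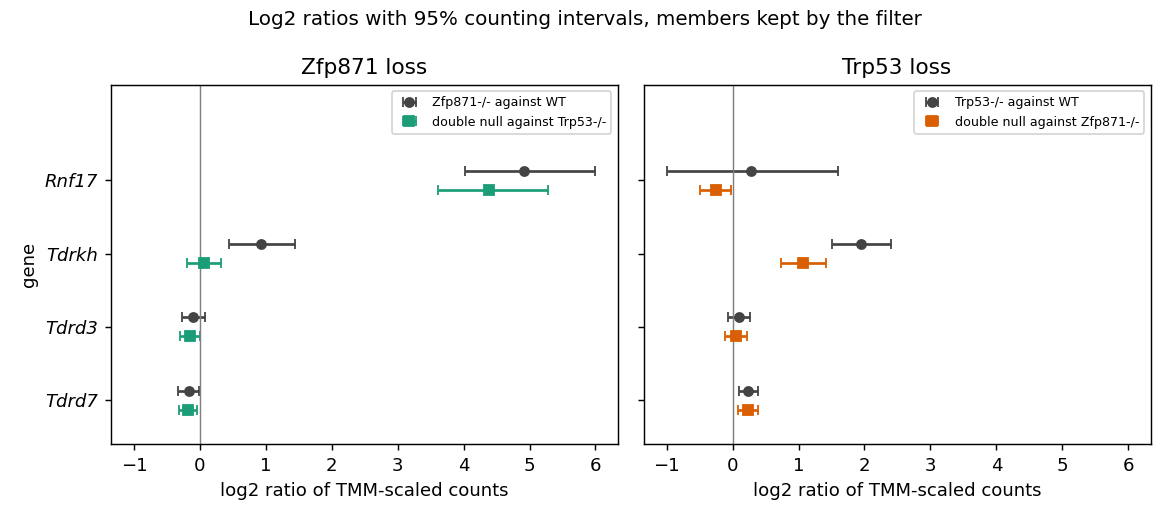
Log2 ratio of TMM-scaled counts (x axis, same scale in both panels) for the 4 members kept by the filter (y axis), for Zfp871 loss on the left and Trp53 loss on the right; each point is 1 pair of libraries and bars are 95% counting intervals. Rnf17 stands at 4.91 and 4.38 for Zfp871 loss while the other genes lie between -0.18 and 0.93; for Trp53 loss Tdrkh stands at 1.94 and 1.07.

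The other 6 relatives, which work in the germ cell piRNA pathway or in sperm granules, were at or near 0 in every library, and none of them appeared with Rnf17. Together they had 25 counts in WT and 6 in Zfp871-/-, then 17 in Trp53-/- and 17 in double-null cells. The pooled log2 ratio of Zfp871 loss was -2.06 (-3.63 to -0.74) with Trp53 and -0.09 (-1.15 to 0.97) without it, on these few counts. A count of 0 allows up to 3 counts, or 0.129 to 0.159 CPM in these libraries.

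Stk31, which joins a Tudor domain to a kinase domain, had 0 counts in all 4 libraries. Tdrd6, a scaffold of the chromatoid body, had 1 count in WT and 1 in Zfp871-/-, then 3 in Trp53-/- and 0 in the double null. Tdrd5, which acts in transposon silencing, had 2, 0, 5 and 0 counts in that order. These 3 genes give no fold with Zfp871 that clears counting error.

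Tdrd1, a partner of the PIWI protein MILI, had 4 counts in WT and 0 in Zfp871-/-, then 9 in Trp53-/- and 12 in the double null. Tdrd9, an RNA helicase of the same pathway, had 10, 5, 0 and 3 counts in that order. Tdrd12, which acts in secondary piRNA production, had 8 counts in WT and 0 in Zfp871-/-, then 0 in Trp53-/- and 2 in the double null. Of these genes, Tdrd12 alone had a Zfp871 difference whose interval excluded an equal level, with Zfp871-/- at least 2.66-fold lower than WT, computed against 3 counts per library. That direction is opposite to Rnf17, and it was not met without Trp53, where the counts were 2 and 0. The highest count among the 6 genes, the 12 of Tdrd1 in the double null, is a level of 0.0948 FPKM, against 2.14 FPKM for Rnf17 in the same library.

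Start-site sequences are shown for the members that carry an E-box and for Tdrkh, the member with the lowest adjusted p in the test of Trp53 loss; the E-box is a letter pattern known from silent germline promoters. Windows of 300 bases (250 before and 50 after an annotated start, RefSeq on GRCm38.p6) were found for 8 of the 10 members, not for Rnf17 and Tdrd6. The E-box CACGTG, which reads the same on both strands and is bound by MAX dimers, was found in the window nearest the gene start of 3 members, Tdrd1, Tdrd9 and Stk31. It occurs in 7.15% of 32851 such windows of all genes. Capitals mark the E-box.
Tdrd1 at chr19:56825959-56826258, plus strand: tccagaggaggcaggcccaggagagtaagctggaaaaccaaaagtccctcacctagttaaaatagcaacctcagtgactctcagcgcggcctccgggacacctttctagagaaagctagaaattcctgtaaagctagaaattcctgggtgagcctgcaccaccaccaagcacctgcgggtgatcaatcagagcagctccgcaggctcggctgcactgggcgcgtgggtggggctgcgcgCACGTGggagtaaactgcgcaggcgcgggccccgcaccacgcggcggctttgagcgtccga
Tdrd9 at chr12:111971309-111971608, plus strand: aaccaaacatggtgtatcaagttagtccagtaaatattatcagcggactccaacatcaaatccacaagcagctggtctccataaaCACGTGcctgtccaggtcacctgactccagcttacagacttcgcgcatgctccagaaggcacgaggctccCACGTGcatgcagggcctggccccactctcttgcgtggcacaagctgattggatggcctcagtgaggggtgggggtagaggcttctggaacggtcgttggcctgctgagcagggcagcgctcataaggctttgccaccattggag
Stk31 at chr6:49395354-49395653, plus strand: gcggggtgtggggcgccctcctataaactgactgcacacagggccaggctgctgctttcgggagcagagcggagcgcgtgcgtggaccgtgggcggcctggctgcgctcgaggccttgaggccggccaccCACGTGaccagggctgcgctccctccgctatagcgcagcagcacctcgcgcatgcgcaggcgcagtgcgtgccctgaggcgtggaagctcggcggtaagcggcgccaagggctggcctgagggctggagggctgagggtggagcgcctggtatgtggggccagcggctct
Tdrkh at chr3:94412994-94413293, plus strand, with no capitals: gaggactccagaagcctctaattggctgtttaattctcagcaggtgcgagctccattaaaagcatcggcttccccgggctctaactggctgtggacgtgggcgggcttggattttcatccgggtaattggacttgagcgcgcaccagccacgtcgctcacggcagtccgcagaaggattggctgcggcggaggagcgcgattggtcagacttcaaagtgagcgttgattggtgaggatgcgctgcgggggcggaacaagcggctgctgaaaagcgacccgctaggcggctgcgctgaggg

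The E-box started 11 bases before the start site in Tdrd1, 165 and 95 bases before it in Tdrd9, and 120 bases before it in Stk31. The E2F core GCGGGA, read on both strands as GCGGGA or TCCCGC, was found in the nearest windows of Tdrd3 and Tdrd5 and in 20% of all windows. The nearest windows of the 8 matched members held 4 to 48 CpG, against a median of 7 over all windows. Tdrd7 had 4, Tdrd12 9, Tdrd9 10, Tdrd1 20, Tdrkh 25, Stk31 28, Tdrd3 43 and Tdrd5 48. Some members have windows at further annotated starts, and these held other numbers of CpG. Those of Tdrd7 held 32 each, those of Tdrd1 25 and 3, that of Tdrd12 11 and that of Stk31 29. The members with an E-box had 0 to 12 counts in every library, whether Zfp871 was present or not. Of the matched members without one, Tdrd5 had 0 to 5 counts and Tdrd12 0 to 8. A match is a description of letters, not a bound site.

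Counts of members are set here beside the same counts over all genes. Of 13306 genes kept by the filter, 3.52% were at least 2-fold higher in Zfp871-/- than in WT, and 0.819% in the double null than in Trp53-/-. Among the 4 members kept, 1 was at least 2-fold higher in each of these pairs, Rnf17 both times, and 0 were at least 2-fold lower, where the shares of all genes were 3.98% and 1.01%. At least 2-fold higher in both backgrounds were 14 genes (0.105%). Because Rnf17 was chosen on this contrast, nothing is read from its own count. For Trp53 loss, 1 of the 4 members, Tdrkh, was at least 2-fold higher in each pair, where the shares of all genes were 8.9% and 5.51% singly and 4.25% in both. In these pairs 0 members were at least 2-fold lower, against 8.88% and 6.33% of all genes. The edgeR quasi-likelihood test of Trp53 loss called 9.33% of all genes (5.01% rose and 4.31% fell) and 0 of the 4 members at a Benjamini-Hochberg adjusted p under 0.05. At an unadjusted p under 0.05 the edgeR test called 1 member, Tdrkh. This count cannot be weighed, since no share of all genes is given at that threshold. DESeq2 called Tdrkh after adjustment, where 794 of all genes rose and 796 fell.

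Most partners of these proteins in the piRNA pathway had few counts in every library. Of 19 listed genes 3 passed the filter, 5 had 0 counts in all libraries, and the list's summed level was 38 CPM in WT and 37.8 in Zfp871-/-, then 18.8 in Trp53-/- and 20.6 in double-null cells. Mybl1 and Tex15 carried most of this sum. The other 17 genes together had 72 counts (3.81 CPM) in WT and 115 (6.1 CPM) in Zfp871-/-, then 93 (4.25 CPM) in Trp53-/- and 91 (3.92 CPM) in double-null cells, so their sum was higher in Zfp871-/- than in WT but not in the other pair. Mov10l1, the helicase that starts piRNA production, and Piwil1, a PIWI protein of late male germ cells, had 0 counts throughout. Ddx4, the germ cell helicase Vasa, had 26 counts in WT and 39 in Zfp871-/-, then 22 in Trp53-/- and 16 in the double null. For Zfp871 loss, Ddx4 had a log2 ratio of 0.59 (-0.17 to 1.36) with Trp53 and -0.55 (-1.57 to 0.45) without it, so both intervals include an equal level.

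Mybl1, the transcription factor that switches on piRNA genes in meiosis, was the most abundant of the list and fell with Trp53 loss. It had 490 counts in WT and 477 in Zfp871-/-, then 289 in Trp53-/- and 292 in double-null cells. The edgeR quasi-likelihood test gave Mybl1 a log2 change of -0.99 (SE 0.149, Benjamini-Hochberg adjusted p = 0.036), and 1 of the 3 tested genes of the list was called, where 9.33% of all genes were. Tex15, which guides transposon methylation, had 155, 120, 29 and 96 counts in that order and did not pass (log2 change -1.56, SE 0.567, edgeR adjusted p = 0.156). For Zfp871 loss, 0 of the 3 were at least 2-fold higher with Trp53 and 1, Tex15, without it, where the shares of all genes were 3.52% and 0.819%.

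Morc1, below the filter and singled out after its values were seen, was the piRNA pathway gene with counts arranged like those of Rnf17. Morc1, which is needed to silence transposons in male germ cells, had 1 count in WT and 10 in Zfp871-/-, then 0 in Trp53-/- and 9 in the double null. Its log2 ratio was 3.32 (0.51 to 8.76) with Trp53, and without Trp53 the interval ran from 0.89 upward. The levels behind these ratios, 0.082 FPKM in Zfp871-/- and 0.0597 in the double null, are far below those of Rnf17. Piwil2, which encodes MILI, had 10, 30, 11 and 6 counts in the same order and was therefore higher in Zfp871-/- than in WT but not in the double null than in Trp53-/-.

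Most genes of meiosis and sperm formation were below the filter. Of 24 such genes, 3 passed the filter (Brdt, Stag3 and Usp26), and 7 had 0 counts in all libraries. Usp26, a ubiquitin protease gene of the testis on the X chromosome, had 0 counts in WT and 153 in Zfp871-/-, then 0 in Trp53-/- and 70 in the double null. It passed the filter only through its Zfp871-null libraries. Brdt, a chromatin reader of male germ cells, had 53, 52, 51 and 54 counts, and Stag3, a cohesin of meiosis, 18, 24, 61 and 71. The meiosis genes Stra8, Hormad1, Tex101 and Mei1 had 0 counts in all 4 libraries. The edgeR test of Trp53 loss called 0 of the 3 tested genes after Benjamini-Hochberg adjustment and 1 at an unadjusted p under 0.05, and DESeq2 called 0. The count at the unadjusted threshold cannot be weighed, since no share of all genes is given for it.

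Markers of germ cells had few counts in every library apart from Prdm1. Of 10 germ cell markers, Pou5f1 and Prdm14 had 0 counts in all libraries, and Dazl had 1 count in WT and 0 elsewhere. Their summed level was 4.71 CPM in WT and 7.8 in Zfp871-/-, then 17.9 in Trp53-/- and 18.8 in the double null, an order that follows Trp53. Most of it was Prdm1, a factor that immune cells use as well, with 35, 75, 314 and 351 counts and a log2 ratio of Zfp871 loss of 1.10 (0.50 to 1.72) with Trp53 and 0.07 (-0.15 to 0.30) without it. The other 9 markers together had 54, 72, 77 and 87 counts, or 2.86, 3.82, 3.52 and 3.74 CPM, in the order used above. Among them Ddx4 and Dnd1 had the most counts, Dnd1 with 24, 27, 38 and 56, and Kit had 1, 3, 1 and 3. The part of germ cell content in the Rnf17 difference was not tested. Macrophage markers, given above, lay at 82.7 and 94.6 CPM in the first pair of libraries and at 1162 and 1049 CPM in the second. Rnf17 stood at log2 ratios of 4.91 and 4.38 for Zfp871 loss in these pairs, and the part of macrophage content in them was not tested.

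Tudor-domain genes outside the germline were expressed in every library and differed by less than 2-fold with Zfp871. Of 21 listed genes 20 were matched and all 20 passed the filter. Of the 20, 0 were at least 2-fold apart in either Zfp871 pair, where all genes gave 7.5% and 1.83%, and their median log2 ratio was 0.02 in each, against 0.00 over all genes. Snd1, a nuclease with a Tudor fold that is also an RNA-binding coactivator, had 4838 counts in WT and 4909 in Zfp871-/-, then 4368 in Trp53-/- and 4550 in the double null. Kdm4a, a histone demethylase, had 2823, 2869, 2471 and 2813 counts in that order.

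With Trp53 loss 2 of these 20 genes rose and 0 fell, where 5.01% of all genes rose and 4.31% fell. Uhrf1, which brings the DNA methyltransferase Dnmt1 to newly copied DNA, had 828 counts in WT and 1367 in Zfp871-/-, then 3179 in Trp53-/- and 3763 in double-null cells. The edgeR quasi-likelihood test gave Uhrf1 a log2 change of 1.44 (SE 0.174, Benjamini-Hochberg adjusted p = 0.027). Lbr, an anchor of chromatin at the nuclear envelope, had a log2 change of 0.82 (SE 0.146, edgeR adjusted p = 0.0459). Uhrf1 was also higher in Zfp871-/- than in WT, at a log2 ratio of 0.73 (0.60 to 0.85), and at 0.15 (0.09 to 0.22) in the double null against Trp53-/-.

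Genes of PRC1.6, the Polycomb complex that keeps many germline promoters silent in other cells through the DNA-binding proteins E2F6, MGA and MAX, differed by less than 2-fold between libraries. All 15 passed the filter, and 0 were at least 2-fold apart in any of the 4 pairs, where all genes gave 7.5% and 1.83% for Zfp871 loss and 17.8% and 11.8% for Trp53 loss. Mga had 2177 counts in WT and 2290 in Zfp871-/-, then 2770 in Trp53-/- and 2789 in the double null. E2f6 had 1361, 1412, 1479 and 1694 counts in that order. The log2 ratios of Zfp871 loss for Mga and E2f6 lay between -0.08 and 0.11. Over all 15 genes they lay between -0.19 and 0.31 with Trp53, where Cbx3 stood at 0.31 (0.21 to 0.40), and between -0.08 and 0.25 without it. For Trp53 loss the 15 genes lay between -0.59 (Ring1) and 0.55 with Zfp871 and between -0.18 and 0.67 without it. Pcgf6 stood at 0.52 and 0.67, L3mbtl2 at 0.55 and 0.51 and Wdr5 at 0.51 and 0.45, with counting intervals clear of an equal level. The edgeR test of Trp53 loss called 0 of the 15 after Benjamini-Hochberg adjustment, and DESeq2 called 0. At an unadjusted p under 0.05 edgeR called 5, a count that cannot be weighed because no share of all genes is given there. With counts scaled by library totals, 2 were called, Tfdp1 and Wdr5, where 867 of all genes rose and 423 fell.

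Rnf17 protein also binds the Mad proteins, partners of MAX that oppose MYC, and 3 of 9 genes of this network passed the test of Trp53 loss. Myc and Mxd3 rose and Mxd4 fell, where 5.01% of all genes rose and 4.31% fell. Mxd4 had 3036 counts in WT and 1846 in Zfp871-/-, then 1137 in Trp53-/- and 969 in the double null, with a log2 change of -1.43 (SE 0.141, edgeR Benjamini-Hochberg adjusted p = 0.0213). Myc had 937, 1194, 2334 and 2991 counts, with a log2 change of 1.06 (SE 0.102, edgeR adjusted p = 0.0205). Mxd3 had a log2 change of 1.19 (SE 0.21, edgeR adjusted p = 0.0455). In the Zfp871 pairs, 1 gene, Mycn with 5 counts in WT and 19 in Zfp871-/-, was at least 2-fold higher with Trp53, and 0 without it, against 3.52% and 0.819% of all genes.

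The genes around Rnf17 on chromosome 14 that passed the filter did not share its difference. Of the 10 nearest protein-coding genes on each side, up to 317 kb before and 731 kb after the Rnf17 start, 9 passed the filter. Their median log2 ratio of Zfp871 loss was 0.01 with Trp53 and 0.02 without it. Of these 9 genes only Mcpt8, 317 kb away, lay before Rnf17, so the medians describe mainly the genes after it. Cenpj, a centriole gene on the opposite strand that ends 1.73 kb beyond Rnf17, had 204 counts in WT and 272 in Zfp871-/-, then 409 in Trp53-/- and 449 in the double null. For Zfp871 loss, Cenpj had a log2 ratio of 0.42 (0.15 to 0.69) with Trp53 and 0.05 (-0.15 to 0.24) without it. Parp4 had log2 ratios of 0.08 (-0.11 to 0.27) and 0.02 (-0.17 to 0.22). Mphosph8, a subunit of the HUSH silencing complex, had -0.05 (-0.18 to 0.09) and -0.07 (-0.19 to 0.05).

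On the other side, Atp12a, an ion pump gene 14 kb from Rnf17, had 0 counts in all libraries. The granzyme genes Gzmb and Gzmc, next in line, had 0 to 3 counts. Of the 9 neighbours kept, 1 was at least 2-fold higher in each Zfp871 pair, where 3.52% and 0.819% of all genes were, and it was not the same gene. Gjb2, a gap junction gene, was higher in Zfp871-/- than in WT (1501 against 721 counts) and lower in double-null than in Trp53-/- cells (1754 against 2471). Mcpt8, a mast cell and basophil protease gene, had 51, 30, 0 and 9 counts in WT, Zfp871-/-, Trp53-/- and the double null.

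**Figure D4:**
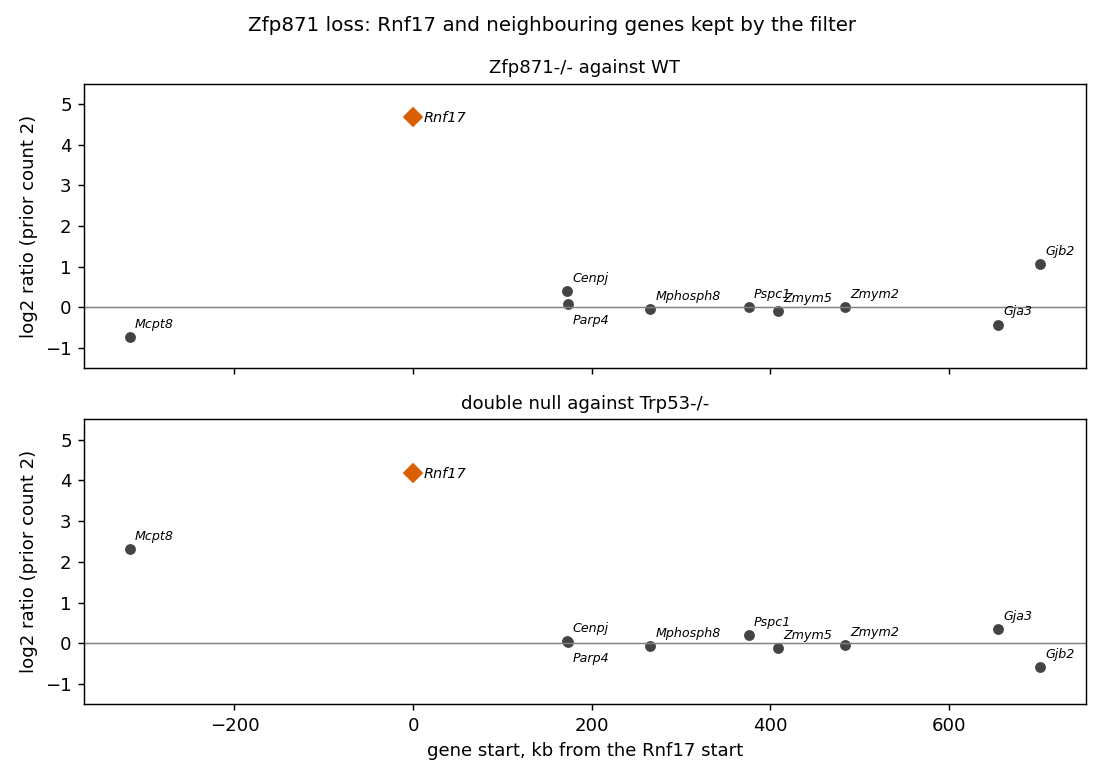
Log2 ratio of Zfp871 loss with a prior count of 2 (y axis) against the distance of each gene's start from the Rnf17 start in kb (x axis), for Rnf17 (diamond) and the 9 neighbours kept by the filter (circles); the upper panel is Zfp871-/- against WT and the lower panel the double null against Trp53-/-. Rnf17 stands at 4.68 and 4.19, and the neighbours lie between -0.73 and 1.06 above and between -0.58 and 2.32 below, where 2.32 is Mcpt8 on 9 and 0 counts.

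Genes kept by the filter were ranked by their likeness to Rnf17 over the 4 libraries. Of its relatives only Tdrd3, Tdrd7 and Tdrkh were in the ranking, since the others were below the filter. The ranking therefore says nothing about those others. Of the genes named below, Usp26, Adgra1 and Elavl2 passed the filter only through their Zfp871-null libraries, as Rnf17 did. Likeness was the root mean square distance between log2 CPM values centred on each gene's mean, over 4 libraries and 13305 other genes, whose median distance was 2.24. Usp26 was nearest, at 0.76, then Slc7a7, an amino acid transporter gene, at 1.25. Adgra1, an adhesion receptor gene, followed at 1.33, Elavl2, an RNA-binding protein gene, at 1.43, and the long noncoding RNA gene Gm47416 at 1.497. With so few libraries, this ranks genes by size and direction of their Zfp871 differences and says little more.

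These 5 genes differed in their counts with Zfp871 present, which were 0 for Usp26 and 7 to 88 for the others. Slc7a7 had 57 counts in WT and 281 in Zfp871-/-, then 88 in Trp53-/- and 287 in the double null, thus a clear level with Zfp871. Adgra1 had 7, 43, 7 and 23 counts in that order. Elavl2 had 15, 53, 7 and 33 counts, and Gm47416 had 19, 67, 22 and 56. Usp26 differed from Rnf17 between the Zfp871-null libraries, since the double null stood at a log2 ratio of -1.43 (-1.86 to -1.01) to Zfp871-/- for Usp26 and of -0.25 (-0.49 to -0.02) for Rnf17.

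**Figure D5:**
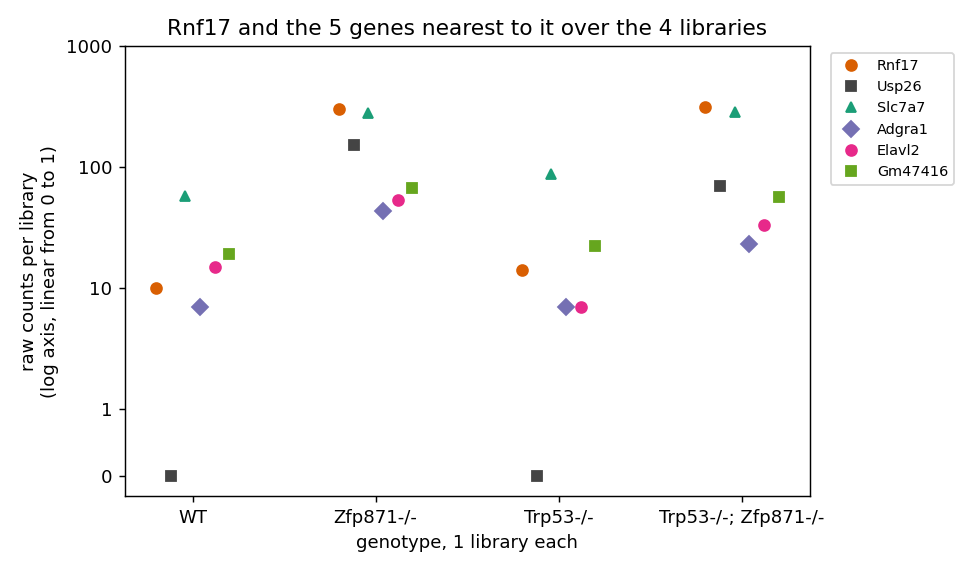
Raw counts (y axis, log scale, linear from 0 to 1) in the 4 libraries (x axis, 1 library per genotype) of Rnf17 and the 5 genes nearest to it by centred log2 CPM; each point is 1 library. All 6 genes are higher in Zfp871-/- than in WT, and higher in double-null than in Trp53-/- cells, which is how they were chosen, and Usp26 alone is at 0 counts in both libraries with Zfp871.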

How the data were processed

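Per the file names and headers, the authors deposited a table of raw counts per Ensembl gene, for which the submitters' processing notes name fastp, STAR, featureCounts and mm10. No version, strand setting or annotation is stated in these notes or the headers. The authors also deposited a value per gene and library whose header gives no unit. It was read as FPKM of the authors, since count over value was 1 constant per gene and library, and that length was the M21 union of exons for every member with counts in WT. FPKM served only for levels per length. GENCODE M21 gave symbols for 54495 of 54532 IDs.

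Counts were scaled with TMM (edgeR 4.0.16, R 4.3.3), and genes with a CPM of at least 1 in at least 2 of 4 libraries were kept (13306). Pairs of libraries were compared as log2 ratios of scaled counts with exact Clopper-Pearson 95% intervals. Without molecular identifiers, reads may be copies of 1 molecule, so intervals cover counting error only. Counts of genes at least 2-fold apart used a prior count of 2. Trp53 loss was tested by edgeR's quasi-likelihood fit with additive terms for Trp53 and Zfp871 (Benjamini-Hochberg, 0.05), a script tested on simulated data. DESeq2 1.42.0 was an alternative.

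Members and lists were chosen with earlier results of these data known. All members are named; of each list, genes 2-fold apart in both Zfp871 pairs, those called for Trp53 loss, or up to 4 of the most abundant, and the 3 nearest neighbours of Rnf17 on each side. Genes named beyond this rule (in each list those at 0, Ddx4, Tex15, Morc1, Piwil2, Stag3, E2f6, Wdr5, Tfdp1, Mycn, Pcgf6, L3mbtl2, Cbx3, Ring1, Prdm1, Dnd1, Kit, Thy1, Dcn, Gjb2 and Mcpt8) were chosen after their values were seen. The macrophage list was added likewise.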

Additional observations from a re-analysis of the deposited data

Results flagged for a closer look

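None of the 10 Tudor-domain genes went opposite ways in the 2 backgrounds of a comparison with both counting intervals clear of an equal level. The genes screened were the members, the neighbours and the piRNA, other Tudor-domain, meiosis, PRC1.6 and MAX network lists. Among these 116 genes 5 did, and none of these differences was tested. The cell type markers were outside this screen. Most fibroblast markers also went opposite ways for Zfp871 loss, among them Dcn at 1.27 (1.18 to 1.36) with Trp53 and -0.97 (-1.03 to -0.90) without it. Col3a1 and Vim did not, and the macrophage markers Ctss and Mpeg1 did. Gjb2, a gap junction gene near Rnf17, had a log2 ratio of Zfp871 loss of 1.06 (0.93 to 1.19) with Trp53 and -0.58 (-0.67 to -0.49) without it. Mcpt8, a protease gene of mast cells and basophils, had -0.76 (-1.47 to -0.09) with Trp53, and without it 9 counts against 0, an interval from 0.89 upward. Tex15 of the piRNA pathway had -0.37 (-0.72 to -0.01) and 1.64 (1.03 to 2.29). Lbr had 0.26 (0.10 to 0.41) and -0.14 (-0.25 to -0.04). Hdac1, a histone deacetylase gene, had -0.13 (-0.22 to -0.05) and 0.19 (0.12 to 0.27) for Zfp871 loss. For Trp53 loss Hdac1 had -0.14 (-0.21 to -0.06) with Zfp871 and 0.19 (0.12 to 0.27) without it, from the same 4 counts.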

How the results depend on the processing

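All 46 recomputed log2 ratios of single members stayed within their main counting interval under DESeq2 size factors and total counts. The counts of members at least 2-fold apart changed only with the filter and the fold. Without a filter 9 members entered, with 3 lower in Zfp871-/- than in WT (Tdrd1, Tdrd5 and Tdrd12), 2 higher and 2 lower in double-null than in Trp53-/- cells, 2 lower in Trp53-/- than in WT and 2 higher in the double null than in Zfp871-/-, where 8.81%, 3.8%, 4.01%, 11.5% and 7.41% of all genes were. At a CPM of at least 0.1 in 2 libraries these counts were 2, 2, 1, 1 and 2 of 7 members, against 8.04%, 3.92%, 4.07%, 12.4% and 8.62% of all genes. The additions all rest on at most 12 counts, and Rnf17 stayed the member higher in both Zfp871 pairs. At a fold of 1.5, 2 members (Rnf17 and Tdrkh) were higher in Zfp871-/- than in WT, against 9.27% of all genes. In the test of Trp53 loss 1 member rose, Tdrkh, by the edgeR test without a filter and by DESeq2, against 0 in the main test, and over all genes 1113 rose and 1191 fell without a filter, against 667 and 574. Scaling by total counts turned the Rnf17 change with Trp53 loss from -0.10 to 0.03 (edgeR adjusted p 0.955). No paired analysis was possible because each genotype has 1 library and the labels number no replicates, and no library could be left out because the test has 1 residual degree of freedom. Depth limits the 6 members with at most 12 counts, whose differences were mostly not detectable.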
